A study of Mus musculus with 19 samples.

Results

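The fibroblast growth factor (FGF) genes examined were the ligands Fgf4, Fgf5, Fgf8 and Fgf15, the binding protein gene Fgfbp3 and the receptors Fgfr1 and Fgfr2. Members were chosen by name, and all of the probes annotated to them were taken: 7 genes with 11 probes, of 25697 probes and 16590 genes on the array. All 7 passed the filter on dim probes, among 9422 genes tested. RNA came from mouse epiblast-like cells (EpiLC) and mouse embryonic stem cells (ESC), and was measured on Illumina bead arrays. Each state was given tamoxifen, 1 µM for 36 h, to delete Foxd3, which encodes a forkhead transcription factor, or ethanol as the wild-type control. The 4 groups were Foxd3-deleted EpiLC in tamoxifen, wild-type EpiLC in ethanol, Foxd3-deleted ESC in tamoxifen and wild-type ESC in ethanol, with 3 samples each and 19 arrays in all. No group received tamoxifen without the deletion, so the drug, the recombinase and the loss of Foxd3 cannot be told apart. All cells grew in a serum medium, and ESC in addition received Lif and inhibitors of GSK and MEK (2i). State and medium therefore cannot be told apart, and MEK acts downstream of the FGF receptors. The recombinase, the promoter driving it, the number of clones and whether samples were separate cultures are not given in the sources used here. The p-values thus speak to differences among these samples alone, which could be technical.

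FGF ligands are secreted proteins that bind receptor tyrosine kinases together with heparan sulfate, and the receptors pass the signal through RAS, RAF and MEK to ERK. ERK induces feedback genes such as the Sprouty and Dusp families. In the early mouse embryo and in ESC, Fgf4 is the ligand that drives cells out of naive pluripotency, Fgf5 marks the epiblast that follows, and Fgf8 is used in the gastrulating embryo. Fgfr1 is the receptor of the epiblast, and Fgfr2 is better known from primitive endoderm and trophoblast.

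The arrays fell into 2 hybridization rounds of 11 and 8, with 7 samples in both rounds and 5 in 1, and every EpiLC ethanol sample in round 1 only. Between 10330 and 11481 probes per array were detected (detection p under 0.01 against the negative control beads), and median raw intensity was 149 to 176 in round 1 and 190 to 220 in round 2. In ESC the raw median was higher in tamoxifen (166 to 176, round 1) than in ethanol (149 to 154, round 1), and in round 2 it was 205.8 to 219.7 in tamoxifen and 192.8 to 205.7 in ethanol. In EpiLC the round 1 medians overlapped, at 153 to 169 in tamoxifen and 159 to 170 in ethanol. The Foxd3 probe was detected on 0 of 19 arrays, so the deletion could not be checked by it. Naive ESC markers were lower in EpiLC than in ESC for 8 of 8 tested, and epiblast-like markers other than FGF genes were higher for 6 of 6, in tamoxifen and in ethanol. Of 7 fibroblast or feeder markers, Col1a1, Col1a2, Col3a1, Lum and Postn were detected in no group. Dcn was detected on every EpiLC array and no ESC array, at least 2.41-fold higher in EpiLC in tamoxifen (adjusted p = 1.83e-04) and at least 2.08-fold in ethanol (adjusted p = 2.28e-04). Thy1 was detected on every array and was lower in EpiLC (log2 change -0.61 in tamoxifen, adjusted p = 0.0289, and -0.56 in ethanol, adjusted p = 0.0421). The summed normalized intensity of the 7 was 356 to 486 in tamoxifen-treated and 402 to 485 in ethanol-treated EpiLC, and 331 to 377 in tamoxifen-treated and 426 to 438 in ethanol-treated ESC. Their part in the differences between the states was not tested. In bulk RNA, fewer cells of a type and less RNA per cell cannot be told apart.

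Each of the 4 ligand genes had 1 probe. Fgfbp3 had 2, Fgfr1 had 2 and Fgfr2 had 3, of which 1 each passed the filter on dim probes and stood for the gene. The second Fgfbp3 probe was detected on 0 of 19 arrays, the other Fgfr2 probes likewise on 0, and the second Fgfr1 probe on 1. Fgf4 and the Fgfr1 probe in use were detected on all 19 arrays, and the Fgfbp3 probe in use on 18. Fgf5, Fgf8 and Fgf15 were each detected on 8 arrays, which were all 8 EpiLC arrays and none of the 11 ESC arrays. Fgfr2 was detected on 6 arrays: all 5 of tamoxifen-treated EpiLC and 1 of 3 of ethanol-treated EpiLC. Raw intensity of the probes in use spanned 127 to 4766 for Fgf5, 135 to 1842 for Fgf8 and 149 to 680 for Fgf15, but 173 to 271 for Fgfr1, whose signal stayed near background throughout. The standard error over beads had a median of 3.0% to 4.65% of the intensity for these probes.

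**Figure D1:**
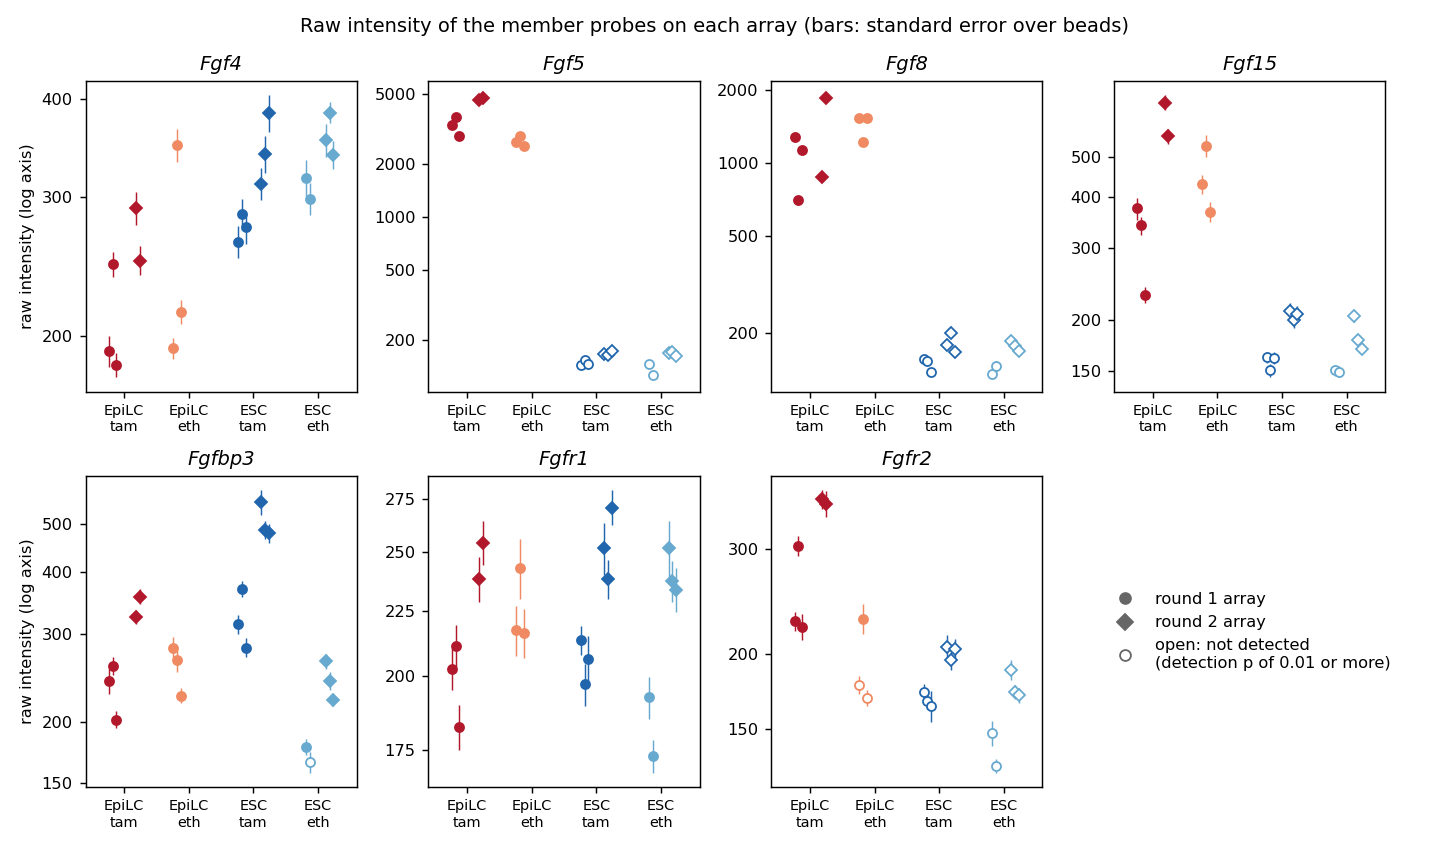
Raw bead intensity (log axis) of the probe in use for each gene on each of the 19 arrays, by group, with round 1 arrays as circles, round 2 arrays as diamonds, open symbols where the probe was not detected, and bars for the standard error over beads. Fgf5, Fgf8 and Fgf15 have filled symbols on the 8 EpiLC arrays only, and round 2 arrays are brighter for several genes.

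Promoter windows are shown for the members that RefSeq's table for GRCm38.p6 holds, because Fgf5, Fgfbp3 and Fgfr2 each changed with tamoxifen in 1 of the states and Fgf4 differed between them. Fgf4, Fgf5, Fgfbp3 and Fgfr2 matched, and Fgf8, Fgf15 and Fgfr1 are named only. Each window runs from 250 bases before to 50 bases after the annotated start, 5′ to 3′ on the gene's strand. Capitals mark matches, on either strand, to the TATA box TATAAA, the CCAAT box CCAAT, the GC box GGGCGG, the SOX core ACAAAG and the E-box CACGTG.
Fgf4 (chr7:144861136-144861435, plus strand): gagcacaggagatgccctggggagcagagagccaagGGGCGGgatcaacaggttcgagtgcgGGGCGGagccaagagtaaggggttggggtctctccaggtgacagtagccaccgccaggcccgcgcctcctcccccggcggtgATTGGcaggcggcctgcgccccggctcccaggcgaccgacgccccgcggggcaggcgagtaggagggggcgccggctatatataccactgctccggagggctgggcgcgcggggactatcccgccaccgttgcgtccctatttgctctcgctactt
Fgf5 (chr5:98253934-98254233, plus strand): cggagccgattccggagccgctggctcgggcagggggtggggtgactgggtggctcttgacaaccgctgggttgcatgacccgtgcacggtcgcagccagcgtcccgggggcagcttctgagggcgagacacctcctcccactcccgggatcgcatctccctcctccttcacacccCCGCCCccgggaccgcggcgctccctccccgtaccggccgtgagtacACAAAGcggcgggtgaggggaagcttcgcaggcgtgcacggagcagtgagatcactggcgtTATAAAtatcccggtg
Fgfbp3 (chr19:36919550-36919849, minus strand): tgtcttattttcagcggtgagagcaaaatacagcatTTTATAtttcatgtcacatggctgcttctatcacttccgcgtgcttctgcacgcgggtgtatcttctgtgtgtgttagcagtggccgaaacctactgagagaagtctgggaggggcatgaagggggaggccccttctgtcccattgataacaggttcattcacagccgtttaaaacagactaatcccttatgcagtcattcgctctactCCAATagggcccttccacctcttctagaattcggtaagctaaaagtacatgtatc
Fgfr2 (chr7:130266759-130267058, minus strand): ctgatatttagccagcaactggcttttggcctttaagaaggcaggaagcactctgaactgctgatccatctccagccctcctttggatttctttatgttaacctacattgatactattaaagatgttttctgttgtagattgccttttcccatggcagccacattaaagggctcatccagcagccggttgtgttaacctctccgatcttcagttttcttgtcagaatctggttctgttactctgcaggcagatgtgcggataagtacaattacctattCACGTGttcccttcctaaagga

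The ligand windows were rich in G and C, at 69.7% with 28 CpG for Fgf4 and 68.3% with 29 CpG for Fgf5. Fgfbp3 had 46.7% with 9 CpG and Fgfr2 43.7% with 4, where the median of 32851 windows was 52.67% with 7 CpG. The GC box, in 35.7% of all windows, stood in Fgf4 with 2 copies and in Fgf5 with 1. A CCAAT box, in 37.4% of all windows, stood in Fgf4 and in Fgfbp3. The TATA letters, in 13.6% of windows, lay 35 bases after the annotated start in Fgf5 and on the minus strand in Fgfbp3. The SOX core stood in Fgf5 (18.7% of windows) and the E-box in Fgfr2 (7.15%). The forkhead core TGTTTAC (3.65% of windows), the octamer ATGCAAAT (1.74%) and the ETS core CCGGAAG (8.86%) were also searched on both strands and matched in none of the 4 windows, which says nothing about binding elsewhere.

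Levels below are log2 of background-corrected, quantile-normalized intensity, 1 value per sample, and levels of different genes are not comparable because each has its own probe. Samples are given in the order of their label numbers 1, 2 and 3. A change is called at an adjusted p under 0.05, from limma with Benjamini-Hochberg adjustment over all 9422 genes.

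Fgf4, the ligand of the ESC and early epiblast, was, in ethanol, lower in EpiLC than in ESC, with wide scatter in EpiLC. Its log2 level was 5.83, 6.94 and 6.17 in tamoxifen-treated EpiLC and 6.03, 7.65 and 6.64 in ethanol-treated EpiLC. It was 6.86, 7.25 and 7.34 in tamoxifen-treated ESC and 7.50, 7.87 and 7.84 in ethanol-treated ESC. Sample 2 was the highest in EpiLC under both treatments, and the EpiLC and ESC ranges overlapped within each treatment. In ethanol the level was 0.96 lower in EpiLC (log2 change -0.96, SE 0.37, adjusted p = 0.0413). In tamoxifen the log2 change between the states was -0.84 (SE 0.37, adjusted p = 0.0712), which did not pass but did with sample number as a block (adjusted p = 0.0271). That block rests on weak correlations of same-numbered samples across the states (0.129, 0.163 and 0.215). The ethanol call was lost without sample 3 of tamoxifen-treated EpiLC (adjusted p = 0.0513), sample 1 (0.166) or 3 (0.0994) of ethanol-treated EpiLC, sample 2 of tamoxifen-treated ESC (0.0501), or sample 1 (0.0514), 2 (0.111) or 3 (0.113) of ethanol-treated ESC. The tamoxifen comparison passed without sample 2 of tamoxifen-treated EpiLC (0.0219) or sample 1 (0.0357) or 2 (0.0212) of ethanol-treated EpiLC.

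Tamoxifen against ethanol, Fgf4 had a log2 change of -0.46 in EpiLC (SE 0.37, adjusted p = 0.512) and of -0.59 in ESC (SE 0.37, adjusted p = 0.373), so neither passed. The EpiLC groups overlapped, while the ESC groups did not. Same-numbered samples differed by -0.19, -0.71 and -0.48 in EpiLC and by -0.64, -0.62 and -0.50 in ESC, lower in tamoxifen in 3 of 3 pairs in each state. With sample number as a block, which removes the scatter that numbered samples share, both changes passed (adjusted p = 0.0189 in EpiLC and 0.00672 in ESC).

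Fgf5, the standard marker of the epiblast after implantation, had the widest range of the members. On the log2 scale it measured 11.78, 11.97 and 11.92 in tamoxifen-treated EpiLC and 11.47, 11.35 and 11.50 in ethanol-treated EpiLC. In ESC it was not detected on any array, with values of 4.49, 4.63 and 4.60 in tamoxifen and 4.63, 4.80 and 4.55 in ethanol. The EpiLC level was at least 67.9-fold that of ESC in tamoxifen (adjusted p = 6.89e-13) and at least 45.2-fold in ethanol (adjusted p = 1.63e-12). These bounds set each ESC array at no less than the lowest detected signal of that array, which was 5.68 to 6.14 on the log2 scale, and the same rule is used for the bounds that follow. An adjusted p printed with a bound, as for Dcn above, belongs to the fitted log2 change and does not test the bound. For Fgf5 the fitted changes were 7.32 in tamoxifen and 6.78 in ethanol, with the ESC side below background.

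In EpiLC, Fgf5 was higher in tamoxifen by 0.45 on the log2 scale (SE 0.09, 1.37-fold, adjusted p = 0.0152), and the 3 tamoxifen samples lay above the 3 ethanol samples. The change was 0.43 on round 1 arrays alone, with an adjusted p of 0.102, and no within-round value exists for round 2, which holds no EpiLC ethanol array. The call was also lost without sample 2 (adjusted p = 0.0545) or 3 (0.0569) of tamoxifen-treated EpiLC. In ESC the probe was below background in both treatments, so no change is given.

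Fgf8, a ligand of the gastrulating embryo, followed the same division between the states. Its log2 level was 10.34, 9.33 and 10.42 in tamoxifen-treated EpiLC and 10.65, 10.03 and 10.76 in ethanol-treated EpiLC, and it was undetected on the 11 ESC arrays (4.50 to 4.94 in tamoxifen and 4.69 to 4.92 in ethanol). Sample 2 was the lowest EpiLC sample in both treatments, the reverse of Fgf4, for which it was the highest. The EpiLC level was at least 18.6-fold that of ESC in tamoxifen (adjusted p = 2.28e-08) and at least 22.9-fold in ethanol (adjusted p = 1.44e-08). Between tamoxifen and ethanol in EpiLC the log2 change was -0.46 (SE 0.27, adjusted p = 0.360), with overlapping groups and a 95% interval of -1.05 to 0.14. Same-numbered samples differed by -0.31, -0.70 and -0.35, lower in tamoxifen in 3 of 3 pairs. The change passed under none of the alternatives run (lowest adjusted p = 0.0545).

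Fgf15, the mouse counterpart of human FGF19, was also detected in EpiLC alone. Levels were 8.26, 8.37 and 7.70 in tamoxifen-treated EpiLC and 8.66, 8.79 and 8.41 in ethanol-treated EpiLC. The ESC values, all undetected, were 4.90 to 5.07 in tamoxifen and 4.94 to 5.16 in ethanol. The EpiLC level was at least 4.77-fold that of ESC in tamoxifen (adjusted p = 2.68e-08) and at least 5.72-fold in ethanol (adjusted p = 8.91e-09). Within EpiLC every tamoxifen sample lay below every ethanol sample, with a log2 change of -0.51 (SE 0.16) that did not pass over all genes (adjusted p = 0.0865). With sample number as a block it passed (adjusted p = 0.00768), and on round 1 arrays alone the change was -0.74 (adjusted p = 0.103). In tamoxifen-treated EpiLC, round 2 read higher than round 1, at 8.82 against 7.92 in sample 2 and 8.18 against 7.22 in sample 3. The round term was fitted over all groups, including ESC arrays without detected Fgf15, and ethanol-treated EpiLC had round 1 only. The -0.51 may thus still hold part of the round difference.

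**Figure D2:**
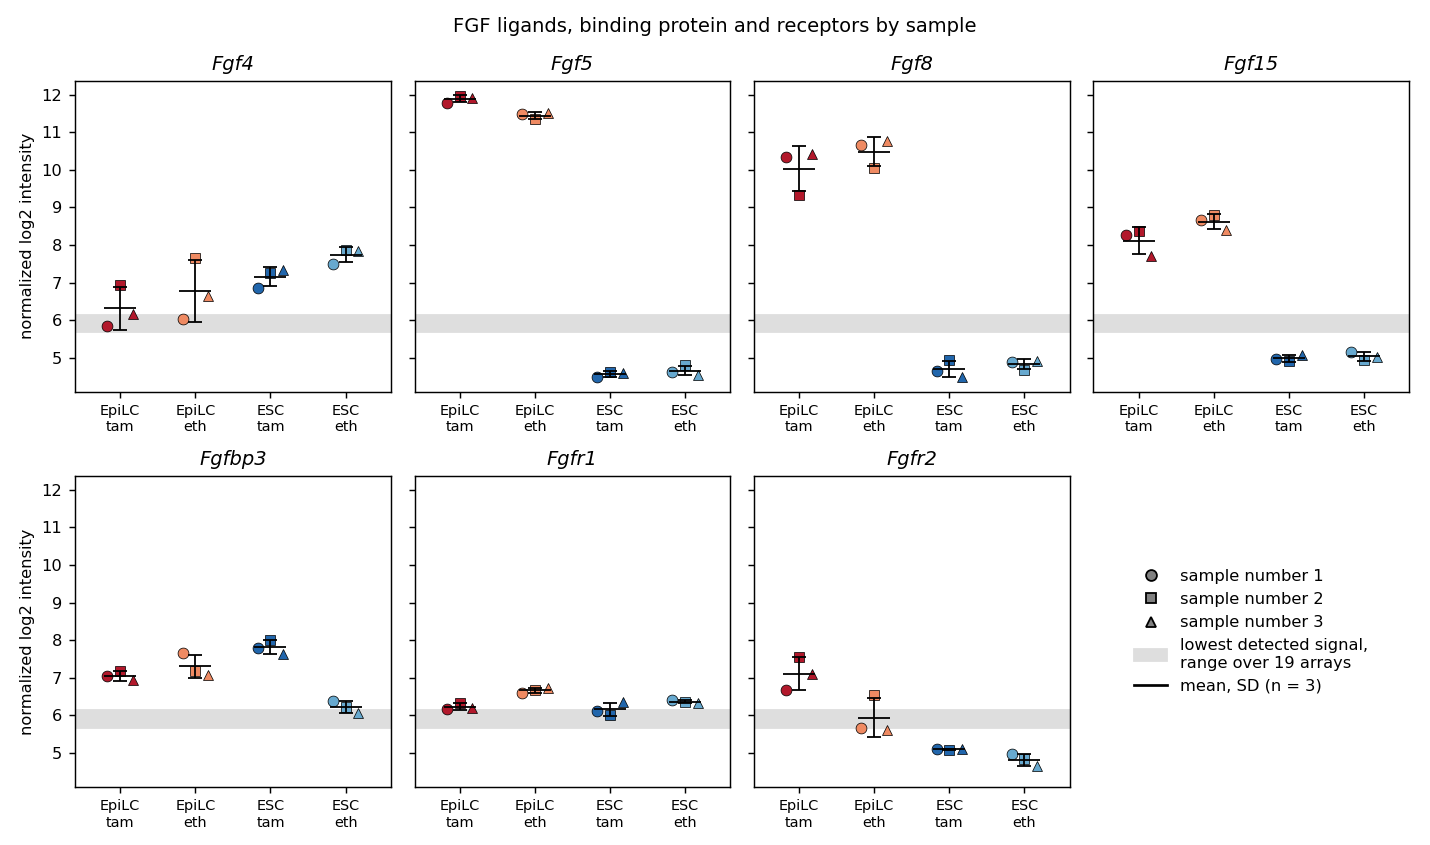
Normalized log2 intensity of the 7 genes in each of the 12 samples, by group, with symbols for sample number, bars for the mean and SD of 3 samples, and a grey band for the lowest detected signal over 19 arrays (5.68 to 6.14). Fgf5, Fgf8 and Fgf15 lie above the band in EpiLC and below it in ESC, Fgfr2 lies above it in tamoxifen-treated EpiLC, and Fgfbp3 has its highest mean in tamoxifen-treated ESC.

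Fgfbp3, which encodes a secreted protein that binds FGFs and releases them from the extracellular matrix, had the largest response to tamoxifen among the members, and it had it in ESC. Its log2 level was 7.80, 8.0 and 7.64 in tamoxifen-treated ESC and 6.39, 6.23 and 6.07 in ethanol-treated ESC. These groups did not overlap, and the level was 1.58 higher in tamoxifen (SE 0.16, 3.0-fold, adjusted p = 1.81e-04). Within hybridization rounds the change was 1.49 in round 1 (3 against 2 samples, adjusted p = 0.00520) and 1.72 in round 2 (3 against 3 samples, adjusted p = 0.00239). In EpiLC the level was 7.04, 7.18 and 6.93 in tamoxifen and 7.66, 7.17 and 7.08 in ethanol, with overlapping groups and a log2 change of -0.26 (SE 0.16, adjusted p = 0.373). The difference of the changes, EpiLC minus ESC, was -1.84 (SE 0.22, adjusted p = 0.00335), and this interaction was -1.74 on round 1 arrays (adjusted p = 0.0316).

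The Fgfbp3 difference between the states therefore depended on the treatment. Tamoxifen-treated EpiLC lay 0.76 below tamoxifen-treated ESC on the log2 scale (log2 change -0.76, SE 0.16, adjusted p = 0.00139). Ethanol-treated EpiLC lay 1.08 above ethanol-treated ESC (SE 0.16, adjusted p = 1.08e-04). From high to low the group means were 7.81 in tamoxifen-treated ESC, 7.31 in ethanol-treated EpiLC, 7.05 in tamoxifen-treated EpiLC and 6.23 in ethanol-treated ESC, and ethanol-treated EpiLC overlapped with each of the tamoxifen groups, while tamoxifen-treated EpiLC and ethanol-treated ESC did not overlap. The probe was not detected on 1 of 5 ethanol-treated ESC arrays, so the size of the fold depends on the background. Over the alternatives run, the tamoxifen change in ESC ranged from 0.76 to 1.77 on the log2 scale. The second Fgfbp3 probe, detected on no array, had a log2 difference of -0.05 in ESC (adjusted p = 0.895). Among primitive endoderm markers, Gata6 (log2 change 1.93, adjusted p = 3.78e-04) and Dab2 (1.39, adjusted p = 6.41e-04) were higher in tamoxifen-treated than in ethanol-treated ESC. The summed normalized intensity of the 6 listed markers was 1721 to 2152 in tamoxifen and 669 to 859 in ethanol, with Gata4, Pdgfra, Sox17 and Sox7 detected on no ESC array. The part of these markers, and of the brighter tamoxifen arrays in ESC, in the Fgfbp3 change and in the Fgf4 difference was not tested.

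Fgfr1, the receptor tyrosine kinase of ESC and epiblast, varied least. Its log2 level was 6.17, 6.33 and 6.18 in tamoxifen-treated EpiLC and 6.60, 6.68 and 6.72 in ethanol-treated EpiLC. It was 6.13, 6.02 and 6.36 in tamoxifen-treated ESC and 6.40, 6.37 and 6.34 in ethanol-treated ESC. Within EpiLC the groups did not overlap, and the level was 0.44 lower in tamoxifen (log2 change -0.44, SE 0.10, adjusted p = 0.0201). In ESC the groups overlapped and the log2 change was -0.20 (SE 0.10, adjusted p = 0.240). The difference of these changes, -0.24, did not pass (adjusted p = 0.408), so the states are not shown to differ. Ethanol-treated EpiLC exceeded ethanol-treated ESC by 0.30 (SE 0.10, adjusted p = 0.0191), and the states in tamoxifen differed by 0.06 (95% interval -0.15 to 0.27, adjusted p = 0.625).

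These Fgfr1 changes are small and rest on a dim probe. The EpiLC call was lost without sample 1 (adjusted p = 0.0626) or 3 (0.0751) of tamoxifen-treated EpiLC or sample 3 of ethanol-treated EpiLC (0.0624), on round 1 arrays (log2 change -0.44, 0.107), with scaling to equal medians (-0.41, 0.0517) and without background correction (-0.18, 0.0663). The ethanol call between states was lost without sample 3 of ethanol-treated EpiLC (0.0587) or of ethanol-treated ESC (0.0871), on round 1 arrays (0.31, 0.112) and without background correction (0.13, 0.0672). The second Fgfr1 probe, detected on 1 array, had a log2 difference of 0.21 in EpiLC, the opposite sign, with an adjusted p of 0.722.

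Fgfr2, the receptor better known from extraembryonic lineages, was detected in EpiLC and was higher there in tamoxifen. Levels were 6.68, 7.54 and 7.11 in tamoxifen-treated EpiLC and 5.66, 6.55 and 5.62 in ethanol-treated EpiLC, of which only sample 2 was detected. The ESC values were undetected, at 5.09 to 5.11 in tamoxifen and 4.65 to 4.96 in ethanol. The EpiLC groups did not overlap, and the log2 change was 1.17 (SE 0.25, 2.25-fold, adjusted p = 0.0181). Its size depends on the background, since the ethanol mean of 5.94 lay within the range of the lowest detected signals, and it was 0.46 without background correction. On round 1 arrays the change was 1.16 (adjusted p = 0.0459). Leaving out sample 2 (adjusted p = 0.0594) or 3 (0.0569) of tamoxifen-treated EpiLC, or sample 1 (0.0633) or 3 (0.0624) of ethanol-treated EpiLC, ended the call.

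Between the states, Fgfr2 was at least 2.48-fold higher in EpiLC in tamoxifen (adjusted p = 3.14e-05). In ethanol the bound was only at least 1.01-fold, so the size of any difference is not shown. The adjusted p of 0.00227 belongs to the fitted log2 change of 1.13, in which the ESC values were below background. The tamoxifen change in EpiLC minus that in ESC was 0.88 for Fgfr2 (SE 0.35, adjusted p = 0.235, or 0.0157 with sample number as a block) and 0.54 for Fgf5 (SE 0.13, adjusted p = 0.0573, or 0.0271 with the block), but the ESC side of both was below background. Of 3 trophoblast markers tested, Gata3 (log2 change 1.30, adjusted p = 0.00469) and Krt8 (1.11, adjusted p = 0.00672) were higher in tamoxifen-treated than in ethanol-treated EpiLC, while Cdx2 had a log2 change of 0.02 (adjusted p = 0.983). The summed intensity of the 6 listed markers was 4690 to 7050 in tamoxifen and 2305 to 3059 in ethanol, with Elf5 and Hand1 detected on no EpiLC array. Krt8 (mean log2 level 12.32 in tamoxifen and 11.22 in ethanol) was far brighter than Gata3 (8.84 and 7.54), so this sum mainly reflects Krt8. In the same comparison naive markers were higher in 3 of 8 tested (Tbx3, Klf5 and Klf2), against 4.74% of all genes. Epiblast-like markers were lower in 2 of 6 (Car14 and Dnmt3b), against 2.17%. Nanog (log2 change -0.19) among the naive markers, and Otx2 (0.35) and Pou3f1 (0.03) among the epiblast-like markers, had the other sign and did not pass. The summed naive level was 11154 to 12248 in tamoxifen and 8580 to 10488 in ethanol, and the summed epiblast-like level was 24604 to 28176 in tamoxifen and 31233 to 33180 in ethanol. Dnmt3b (mean log2 level 14.23 in tamoxifen and 14.63 in ethanol) was far brighter than the next, Pou3f1 (11.62 and 11.59). The epiblast-like sum thus mainly reflects Dnmt3b. Of 6 primitive endoderm markers, Gata6 (log2 change 0.08, adjusted p = 0.882) and Dab2 (0.45, adjusted p = 0.151) were detected on every EpiLC array and did not pass. Pdgfra, Sox17 and Sox7 were detected on some tamoxifen but no ethanol arrays of EpiLC, and Gata4 on none. The summed primitive endoderm level was 1057 to 1389 in tamoxifen-treated and 950 to 1079 in ethanol-treated EpiLC. Of 3 mesoderm markers on the array, Eomes and Mixl1 were likewise detected on some tamoxifen but no ethanol arrays of EpiLC, with a summed level of 111 to 133 in tamoxifen and 100.3 to 135 in ethanol, and Mesp1 on none. These endoderm and mesoderm genes other than Gata6 and Dab2 were too rarely detected to be tested. Tamoxifen-treated EpiLC had 5 arrays, 2 of them in round 2, and ethanol-treated EpiLC had 3, all in round 1. For these detections, treatment thus cannot be told apart from array number and round. The part of all these markers in the Fgf5, Fgfr1 and Fgfr2 changes was not tested.

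**Figure D3:**
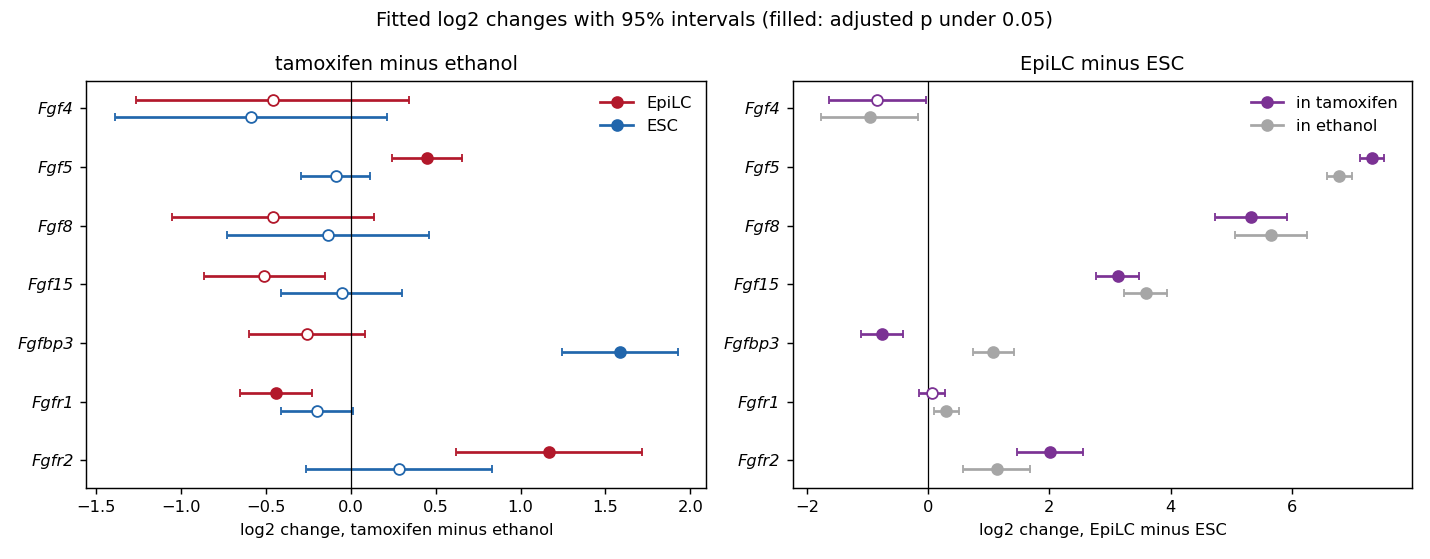
Fitted log2 changes of the 7 genes with 95% intervals, tamoxifen minus ethanol in EpiLC and ESC (left) and EpiLC minus ESC in tamoxifen and ethanol (right), filled where the adjusted p was under 0.05. Fgfbp3 in ESC (1.58) and Fgfr2 in EpiLC (1.17) lie farthest from 0 on the left, and Fgf5, Fgf8 and Fgf15 on the right, where the changes of undetected genes are fitted values and not bounds.

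Counted over the 7 members, tamoxifen in EpiLC changed 3, against 6.91% of all genes called. Fgf5 and Fgfr2 were higher (4.74% of all genes) and Fgfr1 was lower (2.17%). The members' median log2 change was -0.44, against -0.02 over all genes tested, and 4 of 7 had groups that did not overlap, against 24.7% of all genes. In ESC, Fgfbp3 was the 1 member called, against 9.09% of all genes (5.58% higher and 3.5% lower), and 3 of 7 had groups that did not overlap, against 32.5%. The median log2 change in ESC was -0.09 over the members and -0.01 over all genes. Like Fgf8, Fgf15 and Fgfr2, Fgf5 was detected on no ESC array, and the -0.09 was its value. Fgfr2 was also 1 of the 3 without overlap. The ESC count, overlap and median thus include members that could not be measured there. The ESC count is near the share of all genes, and the EpiLC count is above it for members chosen with earlier results known.

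Between EpiLC and ESC in tamoxifen 5 members were called, 4 higher and 1 lower, where 56.5% of all genes were called (29.4% higher and 27.1% lower). Groups did not overlap for 5 of 7, against 63.7% of all genes. In ethanol all 7 were called, 6 higher and 1 lower, where 56.3% of all genes were called (29.8% higher and 26.4% lower), and 6 of 7 did not overlap, against 62.1%. A call between the states was thus common among all genes. The median member change was 2.01 in tamoxifen, against 0.01 over all genes, and 1.13 in ethanol, against 0.03. Both medians were the fitted values of Fgfr2, whose ESC values were below background and whose bound in ethanol was 1.01-fold. Fgf5, Fgf8, Fgf15 and Fgfr2 passed the filter on dim probes through EpiLC arrays alone, which favours higher calls and a positive median. No result is drawn from these medians. For the interaction, the difference of the tamoxifen changes, 1 member of 7 was called and was lower, against 2.59% of all genes (1.41% higher and 1.18% lower). With sample number as a block the counts were 5 for tamoxifen in EpiLC, 2 in ESC, 6 for EpiLC minus ESC in tamoxifen and 3 for the interaction.

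**Figure D4:**
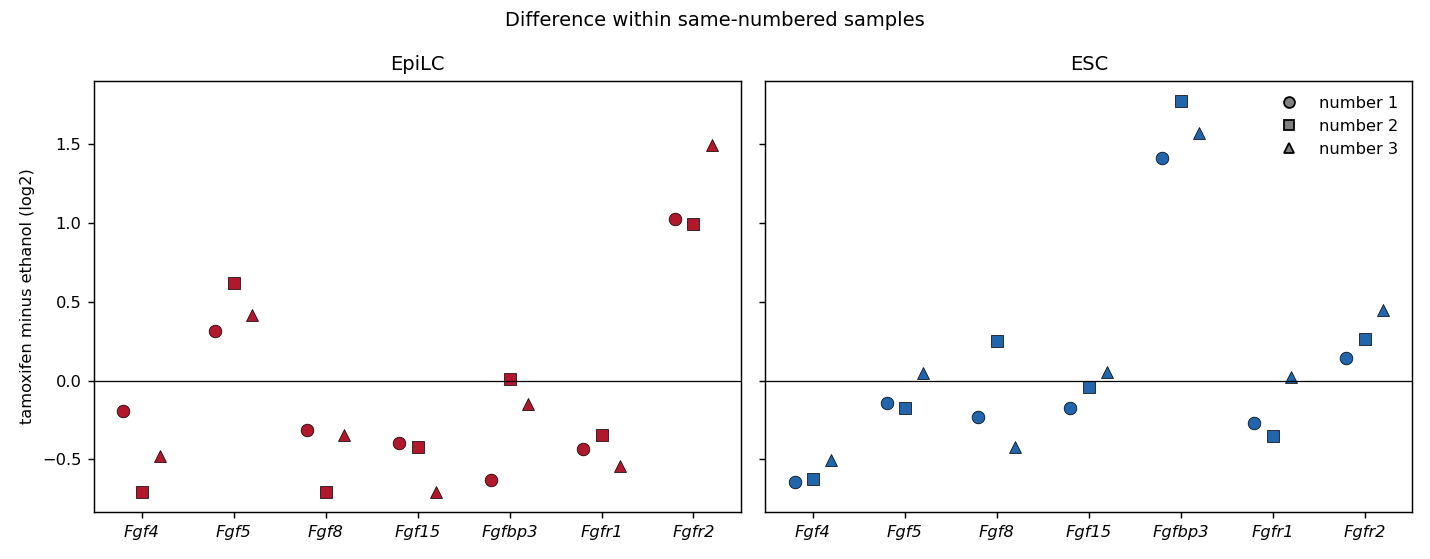
Log2 difference between same-numbered tamoxifen and ethanol samples for each gene in EpiLC and ESC, 1 symbol per number. Fgf4 lies below 0 in all 6 differences, Fgfr2 above 0 in all 6 although its ESC values are below background, and Fgfbp3 lies between 1.41 and 1.77 in ESC and between -0.63 and 0.01 in EpiLC.

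The calls over all genes had more genes higher than lower in both tamoxifen comparisons, 447 and 204 in EpiLC and 526 and 330 in ESC. With scaling to equal medians the split was 315 and 243 in EpiLC and 795 and 120 in ESC. That scaling gave 2096 higher and 3007 lower between states in tamoxifen, against 2770 and 2556, and 78 and 259 for the difference of the tamoxifen changes, against 133 and 111. It moved the median over all genes to -0.10 for EpiLC minus ESC in tamoxifen and to -0.18 for the interaction. Under it no called member changed direction.

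The wider FGF pathway was read from lists of 88 genes, of which 46 were tested. Counts of genes called between the states in these lists stand against 56.5% of all genes called in tamoxifen and 56.3% in ethanol, so a call by itself is common. Of 18 other ligands, 12 were detected on no array, and Fgf13, Fgf17 and Fgf22 were detected on all 19. Fgf13, a member of the intracellular FGF group, was 1.89 higher in EpiLC than in ESC in ethanol (SE 0.15, adjusted p = 5.96e-07). Fgf17, a relative of Fgf8, was 2.84 higher in EpiLC in tamoxifen (SE 0.34, adjusted p = 2.17e-05). Together 2 of the 5 other ligands tested were higher in EpiLC and 1 lower, in tamoxifen and in ethanol. No tamoxifen change of the 5 passed in EpiLC or in ESC. The largest was that of Fgf17 in ESC, at -1.10 (SE 0.34, adjusted p = 0.0658), with groups that did not overlap. The 1 that was lower in EpiLC was Fgf10, named after its values were seen, with bounds of at least 1.32-fold lower in tamoxifen and at least 1.68-fold lower in ethanol.

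Among 7 other receptors, binding proteins and coreceptors tested, Fgfbp1, a relative of Fgfbp3, was the 1 with a called tamoxifen change, in ESC. It was 1.06 higher in tamoxifen-treated than in ethanol-treated ESC (SE 0.21, adjusted p = 0.00978). In ethanol it was 1.90 higher in EpiLC than in ESC (SE 0.21, adjusted p = 1.31e-05). The heparan sulfate list held 14 tested genes, of which 7 were higher and 6 lower in EpiLC than in ESC in tamoxifen, and 8 higher and 5 lower in ethanol. Sulf1, which removes sulfate groups from heparan sulfate, was 2.66 higher in EpiLC in tamoxifen (SE 0.11, adjusted p = 5.84e-09). Sulf1 was lower in tamoxifen-treated than in ethanol-treated ESC (log2 change -1.08, SE 0.11, adjusted p = 2.28e-04), and its tamoxifen change differed between EpiLC and ESC by 0.83 (SE 0.16, adjusted p = 0.0209). Sdc4, a cell-surface heparan sulfate carrier, was 0.64 higher in tamoxifen-treated EpiLC (SE 0.17, adjusted p = 0.0408). Of 7 adaptors and kinases tested, 4 were higher and 1 lower in EpiLC in tamoxifen, and 3 higher and 2 lower in ethanol. No tamoxifen change among them passed in EpiLC or in ESC.

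Most feedback and response genes of the ERK pathway were higher in EpiLC than in ESC. Of 13 tested, 9 were higher and 1 lower in tamoxifen (all genes: 29.4% higher and 27.1% lower), and 10 were higher and 1 lower in ethanol (29.8% and 26.4%). The list medians were 0.82 in tamoxifen and 0.98 in ethanol on the log2 scale, against 0.01 and 0.03 over all genes. The ethanol median was the fitted value of Fos, which in ethanol was detected on 1 EpiLC array and no ESC array. Fos is among the 10 counted higher, but its bound in ethanol was 0.74-fold, so no increase of it is shown there. Dusp6, a phosphatase that acts on ERK, was 4.43 higher in EpiLC in tamoxifen (SE 0.26, adjusted p = 7.24e-08) and 4.20 higher in ethanol (adjusted p = 9.74e-08). Dusp4, another such phosphatase, was 3.79 higher in tamoxifen (adjusted p = 3.91e-07) and 4.32 higher in ethanol (adjusted p = 1.19e-07). Egr1, an immediate early transcription factor, was at least 12.7-fold higher in EpiLC in ethanol (adjusted p = 9.46e-08). The 1 lower gene was Etv5, named after its values were seen, at -0.36 in tamoxifen and -0.69 in ethanol. The ESC medium held a MEK inhibitor, and its part in these differences cannot be told apart from that of cell state.

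Tamoxifen changed 3 of the 13 feedback and response genes in each state, where 6.91% of all genes were called in EpiLC and 9.09% in ESC. In EpiLC the ETS factor gene Etv1 was lower (log2 change -1.19, SE 0.17, adjusted p = 0.00255), and Phlda1 (1.02, SE 0.23, adjusted p = 0.0228) and the immediate early gene Fos (0.81, SE 0.22, adjusted p = 0.0478) were higher. In ESC, Dusp4 was higher (1.12, SE 0.27, adjusted p = 0.0267), the cyclin gene Ccnd1 lower (-0.65, SE 0.07, adjusted p = 3.32e-04), and Fos higher (adjusted p = 0.0264) with no fold given because it was undetected in ethanol-treated ESC. The tamoxifen change of Ccnd1 differed between EpiLC and ESC by 0.56 (SE 0.10, adjusted p = 0.0181). List medians were 0.03 in EpiLC and 0.14 in ESC. Over all 46 tested pathway genes, tamoxifen was called higher for 3 and lower for 1 in EpiLC, and higher for 4 and lower for 2 in ESC. The shares over all genes were 4.74% higher and 2.17% lower in EpiLC, and 5.58% higher and 3.5% lower in ESC, so the pathway counts lay near the background.

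**Figure D5:**
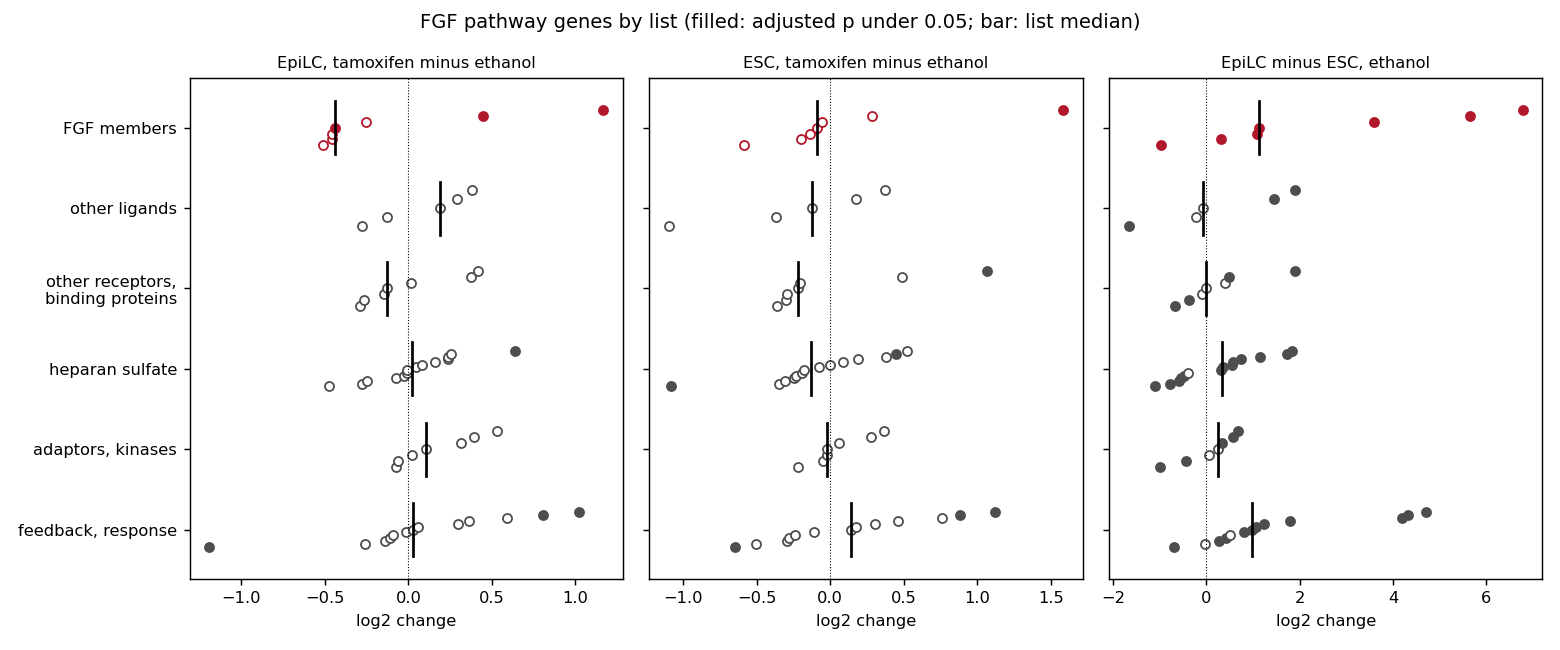
Log2 changes of the 7 members (red) and of the tested genes of 5 pathway lists, tamoxifen minus ethanol in EpiLC and ESC and EpiLC minus ESC in ethanol, filled where the adjusted p was under 0.05, with a bar for each list's median. The feedback and response list has 10 filled points above 0 in the right panel and few filled points in the other panels.

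The genes whose pattern over the 12 samples was most like each member were found by the root mean square difference of mean-centred log2 values. For Fgf4 they were Kat2b at 0.30 and Sox2 at 0.31, and for Fgf5 they were Car4 at 0.35 and Esrp1 at 0.65. Vrtn at 0.31 and Tmem54 at 0.39 stood nearest to Fgf8, and Ptn at 0.20 and Csn3 at 0.21 nearest to Fgf15. Rb1 at 0.30 and Nme5 at 0.33 stood nearest to Fgfbp3. Bub3 and Adarb1 were nearest to Fgfr1, and Plcd1 at 0.25 and Bbx at 0.30 to Fgfr2. Car4, a carbonic anhydrase, had a log2 change of 1.24 with tamoxifen in EpiLC (SE 0.14, adjusted p = 6.84e-04), where Fgf5 had 0.45. With scaling to equal medians, 8 of these 14 neighbours in pattern stayed the same.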

How the data were processed

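The authors' deposited raw table gives bead intensity on a linear scale, a detection p-value, the standard error over beads and the bead number per probe and array. Their deposited normalized table holds intensity with 10 values below 0, and limma is named per the submitters' processing notes without a method or version. The raw intensity was used here: neqc of limma 3.58.1 in R 4.3.3 (offset 16), after which each probe was fitted with terms for sample and hybridization round, giving 1 log2 value for each of 12 samples. The 12529 probes detected (p under 0.01) on 3 or more of the 19 arrays entered, and the brightest probe per gene stood for it. Of 25697 probes, 23962 were named by gene identifier, 9 by accession and 7 by the platform's symbol; 1719 had no entry. Groups were compared with lmFit and eBayes; the script was tested on simulated data. Levels are limited in precision by the 12 samples.

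Same-numbered tamoxifen and ethanol samples deviated together (correlations 0.547, 0.567 and 0.497 in EpiLC, 0.398, 0.371 and 0.471 in ESC), so blocked values are given there. Between EpiLC and ESC the correlations were weaker, at 0.129, 0.163 and 0.215 in tamoxifen, and blocked values are given there too. EpiLC and ESC in ethanol were alike in this, with 0.0599, 0.121 and 0.253, and the block was run for that comparison as well. The labels do not say that numbers pair samples across the states. Members, lists and comparisons were chosen with earlier results of these data known. Named genes are all members, up to 5 called pathway genes per comparison with the largest change, the 2 genes most like each member, and the nearest 2 genes with a probe on each side of it. Alternatives were another scaling, the authors' table, no background correction, other probe filters, single rounds, a random sample block, array weights, the replicate block and leaving out each sample. The comparison of states on round 2 arrays was added after the data were seen.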

Additional observations from a re-analysis of the deposited data

Results flagged for a closer look

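The tamoxifen change of Fgfbp3 differed between the states by a test of the difference itself. It was -0.26 on the log2 scale in EpiLC and 1.58 in ESC, and the difference, EpiLC minus ESC, was -1.84 (limma, adjusted p = 0.00335).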

How the results depend on the processing

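No called change of a member switched direction. Tamoxifen in EpiLC was called for 3 members; the count was 1 on round 1 arrays and 5 with the replicate block, and 0 to 3 when 1 sample was left out (0 without sample 3 of tamoxifen-treated EpiLC, 1 without its sample 2 or without sample 3 of ethanol-treated EpiLC). Tamoxifen in ESC was called for 1, for 2 with the replicate block and for 1 whichever sample was left out. The states differed in 5 members in tamoxifen (5 to 6 with 1 sample left out) and in 7 in ethanol (5 to 7, and 7 with the replicate block). The difference of the tamoxifen changes was called for 1 member, for 2 (Fgfbp3 and Fgf5) with scaling to equal medians, the authors' table, no background correction, a random sample block or array weights, for 3 with the replicate block, and for 1 with any sample left out. The replicate block changed no other member's call than those given above. Fgf4 between the states in ethanol was also lost with scaling to equal medians (adjusted p = 0.0656) and with no probe filter (0.0651), and its tamoxifen comparison passed with a random sample block (0.0220) and array weights (0.0285). The causes were not tested. The Fgfbp3 calls in ESC, between the states and for the difference of the changes held under all alternatives run, with an adjusted p of at most 0.0316. Over all genes, calls for tamoxifen in EpiLC (447 higher and 204 lower) became 1032 and 844 with the replicate block, 628 and 443 with the authors' table, 264 and 72 on round 1 arrays, and 273 and 84 without sample 3 of tamoxifen-treated EpiLC, the fewest with 1 sample left out. In ESC (526 and 330) they became 1135 and 904 with the block, 813 and 635 with array weights, 281 and 109 on round 1 arrays, and, at the same lowest total, 343 and 180 without sample 1 of tamoxifen-treated ESC and 352 and 171 without sample 1 of ethanol-treated ESC. For the interaction (133 and 111) they became 555 and 592 with the block, 215 and 181 with the authors' table, 35 and 26 on round 1 arrays, and at the fewest 60 and 49, without sample 3 of ethanol-treated ESC. The dim probes of Fgfr1, Fgfr2 and Fgf4 limit what their sizes can show.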

Other observations

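Gene neighbours were taken from the RefSeq table of GRCm38.p6, as the nearest 2 genes with a probe on each side of a member. Fgf4 and Fgf15 neighbour each other, and differed in opposite directions between EpiLC and ESC in ethanol, Fgf15 higher and Fgf4 lower. Fgf3, on the other side of Fgf4, was not tested, and Ccnd1, beyond Fgf15, was 0.82 higher in EpiLC than in ESC in tamoxifen (SE 0.07, adjusted p = 1.90e-06) and 0.26 higher in ethanol (SE 0.07, adjusted p = 0.00880). Cfap299, next to Fgf5, was higher in EpiLC by 3.21 in tamoxifen (SE 0.17, adjusted p = 2.91e-08) and by 2.74 in ethanol (SE 0.17, adjusted p = 9.08e-08). Ppp1r3c, next to Fgfbp3, was 0.91 higher in tamoxifen-treated than in ethanol-treated ESC (SE 0.12, adjusted p = 0.00104), while its change in EpiLC, 0.26, did not pass (adjusted p = 0.252). Hectd2 and Marchf5, the other neighbours of Fgfbp3 tested, had log2 changes of 0.52 (adjusted p = 0.119) and 0.73 (adjusted p = 0.0998) in ESC. LTO1, beside Fgf15, had a log2 change of 0.10 between EpiLC and ESC in tamoxifen (adjusted p = 0.339) and of -0.23 in ethanol (adjusted p = 0.0407). Beside Fgf8, Fbxw4 had changes of 0.34 (adjusted p = 0.129) in tamoxifen and 0.81 (adjusted p = 0.00209) in ethanol, and Dpcd of -0.03 (adjusted p = 0.784) and 0.05 (adjusted p = 0.655). Beside Fgfr1, Tacc1 was lower in EpiLC in tamoxifen (-0.27, adjusted p = 0.0307) and in ethanol (-0.66, adjusted p = 9.28e-05), as was Plekha2 (-0.34, adjusted p = 0.0284, and -0.38, adjusted p = 0.0170), while Plpp5 was higher in both (0.43, adjusted p = 0.0160, and 0.42, adjusted p = 0.0183). The tamoxifen changes of LTO1, Fbxw4, Dpcd, Tacc1, Plekha2 and Plpp5 did not pass in EpiLC or in ESC. Ano1, Gk2, Prdm8, Bmp3, Oga, Kcnip2, Cpeb3, Letm2, Plpp4 and Tacc2, like Fgf3, did not pass the filter on detection and were not tested. Wdr11 and Ate1, beside Fgfr2, had log2 changes of 0.13 (adjusted p = 0.701) and -0.01 (adjusted p = 0.973) with tamoxifen in EpiLC.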
